A study of Mus musculus with 12 samples.

Results

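The 10 genes described here encode enzymes of the polyol pathway, of fructose use, of the pentose phosphate pathway and of methylglyoxal clearance: Akr1b3, Akr1b8, Sord, Khk, Pgd, Pgls, Taldo1, Rpia, Rpe and Glo1. Each was taken by its symbol in the platform annotation, and a gene with several probe sets was represented by the one of highest mean level. A probe set was named for 8 of the 10. Akr1b3, aldose reductase, and Sord, sorbitol dehydrogenase, had none under these symbols, so both core enzymes of the polyol pathway are not analysed here. The 8 genes are part of 22180 that were tested together.

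RNA came from primary aortic smooth muscle cells of mice of the common inbred strain C57BL/6J, grown at passage 3 to 4 in DMEM, a standard culture medium, with 10% fetal calf serum. The control of the comparison was medium with 0.3 g/l (1.7 mM) glucose, and the other group received 4.5 g/l (25 mM). Each group held 6 microarrays, numbered as replicates 1 to 6, and both groups shared strain, serum and passage. The series text states 14 days of culture at these concentrations and the sample labels state 1 week. Nothing in the labels ties the replicates to separate cultures or animals, so the spread behind the p-values is that of these 12 samples and may be technical only. No osmotic control is analysed here.

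Glucose that is not spent in glycolysis can take several side routes. In the polyol pathway aldose reductase makes sorbitol from glucose at the cost of NADPH, sorbitol dehydrogenase turns it into fructose, and ketohexokinase traps the fructose as its phosphate. The pentose phosphate pathway starts from glucose 6-phosphate: its oxidative branch yields NADPH, which antioxidant and lipid synthesis enzymes consume, and its non-oxidative branch rearranges sugar phosphates and supplies ribose for nucleotides. Methylglyoxal, a reactive by-product of glycolysis, is cleared by the glyoxalases. In vascular cells these routes have long been studied in the setting of diabetic complications.

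Of the 8 measured genes, Khk rose and Pgls and Rpe fell in 4.5 g/l glucose, all by less than 1.5-fold, and 5 did not pass the test. A gene passed if limma on the log2 values gave it a p under 0.05 once adjusted by Benjamini-Hochberg across the 22180 genes. This called 15.5% of all genes, 7.01% as higher and 8.52% as lower, against 3 of these 8 genes (37.5%), 1 higher and 2 lower. Of the 8 genes 0 lay among the dimmest 25% of genes. With that 25% left out, limma called 23.8% of the remaining 16635 genes, and the counts of the 8 stayed at 1 higher and 2 lower. The median log2 difference (4.5 minus 0.3 g/l) was -0.11 over the 8 genes and -0.0069 over all genes. All values below are log2 RMA values, a background-corrected and quantile-normalized array signal, or differences between them. An array signal is relative to the other genes on that array, and fewer cells of a type cannot be told apart from less RNA per cell.

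An array of the low glucose group stood apart from its group. On the first principal component of all genes, which held 46.2% of the variance, 0.3 g/l replicate 4 lay at 17.2, among the 4.5 g/l arrays (12.5 to 26.2), and the other 5 arrays of 0.3 g/l lay between -30.2 and -24.4. For 6 of the 8 genes its value fell outside the range of those 5 arrays, below it for 5 genes and above it for 1. The mean of 8 smooth muscle markers was 9.07 to 9.29 in those 5 arrays, 10.22 in replicate 4 and 10.59 to 10.79 in 4.5 g/l. The mean of 9 endothelial markers was 8.54 to 8.61 in those 5 arrays, and 8.08 in replicate 4. In high glucose it was 8.55 to 8.63 for replicates 1 to 3 but 7.90 to 7.94 for replicates 4 to 6. Of the 9 endothelial markers Emcn reached 11.82 and Cdh5, the adhesion molecule VE-cadherin of endothelial junctions, 11.36. The dimmest were Kdr, Tek and Vwf, with means of 5.52, 5.93 and 6.04 in 0.3 g/l and 5.41, 5.45 and 6.01 in 4.5 g/l. The median level of all genes was 5.53. Means of macrophage and leukocyte markers (7 genes), fibroblast markers (6 genes) and adipocyte markers (5 genes) lay at 4.78 to 5.13, 6.10 to 6.49 and 5.05 to 5.50, with overlapping groups. Pericyte markers (5 genes), most of them shared with smooth muscle, had means of 9.34 to 9.76 in 0.3 g/l and 9.69 to 9.81 in 4.5 g/l. Such means can hide single genes. Of the 5 pericyte markers 3 were called higher and 1 lower, where 15.5% of all genes were called. Of the 5 adipocyte markers 1, Lpl, was called lower (log2 difference -1.02, limma adjusted p = 0.0112). Of the fibroblast markers and of the macrophage and leukocyte markers 0 were called. The part of any of these cell types in the differences below was not tested.

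**Figure D1:**
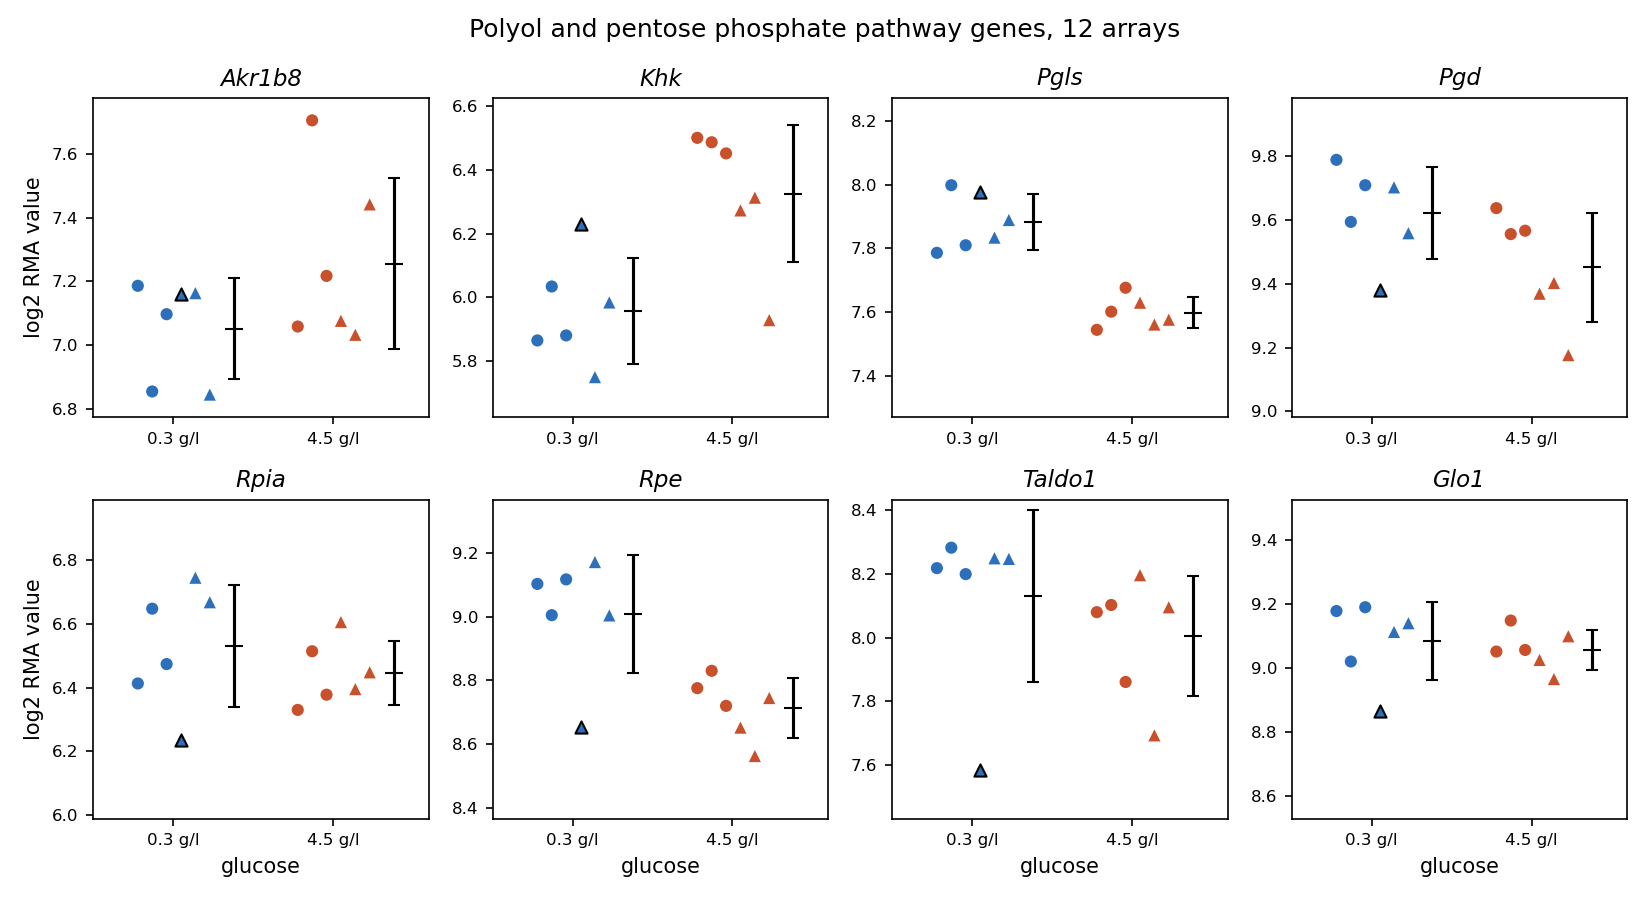
Log2 RMA value (vertical axis, 1 log2 unit high in every panel) of the 8 measured genes on each array, by glucose group; circles are replicates 1 to 3, triangles replicates 4 to 6, the black outline marks 0.3 g/l replicate 4, and bars give mean and SD (n = 6). The groups are apart in Pgls alone; in Rpe only 0.3 g/l replicate 4, at 8.65, lies among the 4.5 g/l arrays.

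Promoter sequences are shown for the genes that passed, as the stretch of genome next to the start of each RNA. The 250 bases before a start site are given, from RefSeq on GRCm38.p6, 5′ to 3′ along the strand of the gene, with matches to the searched motifs in capitals.
Khk (chr5:30921309-30921558, plus strand): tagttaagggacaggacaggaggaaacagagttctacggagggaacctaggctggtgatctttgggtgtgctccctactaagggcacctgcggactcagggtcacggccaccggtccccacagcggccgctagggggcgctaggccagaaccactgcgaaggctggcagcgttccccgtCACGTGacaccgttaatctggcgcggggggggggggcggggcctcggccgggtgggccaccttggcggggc
Pgls (chr8:71591934-71592183, plus strand): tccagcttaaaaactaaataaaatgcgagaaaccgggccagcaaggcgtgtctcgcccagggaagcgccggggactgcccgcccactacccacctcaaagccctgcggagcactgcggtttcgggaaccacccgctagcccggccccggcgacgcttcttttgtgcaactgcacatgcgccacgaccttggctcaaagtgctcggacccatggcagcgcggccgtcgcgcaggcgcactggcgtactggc
Rpe (chr1:66700581-66700830, plus strand): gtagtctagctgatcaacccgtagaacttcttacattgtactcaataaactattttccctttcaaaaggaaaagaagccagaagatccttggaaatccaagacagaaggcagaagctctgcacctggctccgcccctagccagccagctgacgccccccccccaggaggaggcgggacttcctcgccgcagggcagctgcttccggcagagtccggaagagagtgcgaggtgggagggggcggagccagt
Motifs searched on both strands were the E-box CACGTG, a core letter run of sites for MondoA, ChREBP, MYC and related factors, and TGACNNNGC, the core of the antioxidant response element to which NRF2 binds. No base belonged to matches of both. Promoters were available for 9 of the 10 genes, as 10 sequences. The capitals in the Khk promoter are the one E-box among the 10, where 6.02% of 32851 mouse promoters of this length held one. TGACNNNGC occurred in 0 of the 10, against 10.2% of all promoters. A match is a stretch of letters, and binding was not measured.

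In the polyol and fructose route, Khk, ketohexokinase, rose 1.29-fold. Its values ran from 5.75 through a median of 5.93 to 6.23 in 0.3 g/l and from 5.93 through 6.38 to 6.50 in 4.5 g/l. The highest low glucose value was that of replicate 4 (6.23). The groups overlapped through 4.5 g/l replicate 6 alone (5.93): the other high glucose arrays lay at 6.27 to 6.50, above every low glucose array. The means were 5.96 ± 0.17 and 6.32 ± 0.22 (SD, n = 6), a log2 difference of 0.37 ± 0.10 (SE; 95% interval 0.14 to 0.59; limma adjusted p = 0.0291). High glucose replicates 1 to 3 lay close together at 6.45 to 6.50 and replicates 4 to 6 at 5.93 to 6.31. The difference was 0.55 within replicates 1 to 3 (limma adjusted p = 0.00388) and 0.18 within replicates 4 to 6 (limma adjusted p = 0.617), or 0.30 there without 0.3 g/l replicate 4 (limma adjusted p = 0.234). Whether these within-range differences themselves differ was not tested. The call did not hold in 8 of the 12 fits that left out an array (0.3 g/l replicates 1, 3, 5 and 6, and 4.5 g/l replicates 1, 2, 3 and 5; limma adjusted p = 0.0524 to 0.0712), while the difference stayed between 0.33 and 0.45.

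Akr1b8, an aldo-keto reductase whose gene neighbours those of Akr1b3 and Akr1b10, did not pass. It ran from 6.85 through 7.13 to 7.19 in 0.3 g/l and from 7.03 through 7.15 to 7.70 in 4.5 g/l. The high glucose arrays reached above the low ones mainly through replicates 2 (7.70) and 6 (7.44), and the medians of the groups were close. The log2 difference was 0.20 ± 0.12 (SE; 95% interval -0.05 to 0.46; limma adjusted p = 0.296). Akr1b10, its close relative, differed by 0.08 ± 0.11 (95% interval -0.15 to 0.31). Related aldo-keto reductases can share probe signal, so values of the individual family members are uncertain.

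Around these genes, 8 of 12 listed genes of the polyol and fructose pathway were measured. Of these 2 rose, 1 fell and 5 did not pass, where 15.5% of all genes were called. Glyctk, glycerate kinase, which acts late in fructose breakdown, rose 1.22-fold, from 5.16 ± 0.14 to 5.45 ± 0.13 (SD, n = 6; limma adjusted p = 0.0261). Its values were 4.93 to 5.37 in 0.3 g/l and 5.26 to 5.66 in 4.5 g/l, and the groups overlapped. The Glyctk call did not hold in 5 of the 12 fits that left out an array (0.3 g/l replicates 5 and 6, and 4.5 g/l replicates 3, 4 and 5; limma adjusted p = 0.0516 to 0.0611). Dcxr, the NADPH-dependent dicarbonyl and L-xylulose reductase, was 1.24-fold lower (limma adjusted p = 0.0468). The low glucose arrays lay at 8.00 to 8.15. Of the high glucose arrays, replicates 1 to 3 had values of 7.85 to 8.12 and replicates 4 to 6 values of 7.50 to 7.64, the lowest 3 of the 12. Those 3 arrays are also the ones with the lowest endothelial marker means, 7.90 to 7.94. The next lowest mean, 8.08, was that of 0.3 g/l replicate 4, which had the highest Dcxr value of the 12 arrays (8.15). The part of endothelial cells was not tested. Dcxr no longer passed in 10 of the 12 fits without an array, that without 0.3 g/l replicate 4 included (limma adjusted p = 0.0597). Akr1a1, aldehyde reductase, differed by -0.09 ± 0.06 (SE) and Tkfc, which phosphorylates glyceraldehyde from fructose, by -0.11 ± 0.08, and neither passed. Slc2a5, the fructose transporter, had means of 4.42 and 4.35, close to 4.20, the upper bound of the dimmest 25% of genes.

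In the oxidative pentose phosphate branch, Pgls was the one of the 8 genes whose groups did not overlap, a pattern held by 6.4% of all genes. Pgls encodes 6-phosphogluconolactonase, which opens the lactone ring made by the dehydrogenase ahead of it. Its values were 7.79, 7.86 and 8.00 (lowest, median and highest) in 0.3 g/l and 7.54, 7.59 and 7.68 in 4.5 g/l. Every low glucose array was above every high glucose array, replicate 4 (7.98) included. The mean fell from 7.88 ± 0.09 to 7.60 ± 0.05 (SD, n = 6), a log2 difference of -0.28 ± 0.06 (SE; 95% interval -0.41 to -0.16; limma adjusted p = 0.00447), or 1.22-fold. It passed in all 12 fits that left out an array (limma adjusted p = 0.00276 to 0.0126). Within replicates 1 to 3 the difference was -0.26 and within replicates 4 to 6 it was -0.31, close to the value over all arrays; with fewer arrays neither passed (limma adjusted p = 0.103 and 0.178).

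Another Pgls probe set, with a lower signal, differed less. It had a log2 difference of -0.12 ± 0.06 (SE; 95% interval -0.25 to 0.0064; limma adjusted p = 0.212 in a fit over 23521 probe sets). The direction was the same on both probe sets, and the size of the Pgls difference thus depended on the probe set used.

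Pgd, 6-phosphogluconate dehydrogenase, which makes NADPH and ribulose 5-phosphate in the next step, did not pass. It ran from 9.38 through 9.65 to 9.79 in 0.3 g/l and from 9.18 through 9.48 to 9.64 in 4.5 g/l. The groups overlapped, and the log2 difference was -0.17 ± 0.09 (SE; 95% interval -0.36 to 0.02; limma adjusted p = 0.243). Values of Pgd sorted the arrays in another way. High glucose replicates 4 to 6 together with low glucose replicate 4 lay at 9.18 to 9.40, and the other 8 arrays, of both groups, at 9.56 to 9.79. The same 4 arrays had the lowest endothelial marker means, 7.90 to 8.08 against 8.54 to 8.63, and the part of these cells was not tested. H6pd, the hexose 6-phosphate dehydrogenase of the endoplasmic reticulum, differed by 0.09 ± 0.06 (limma adjusted p = 0.369). Of 4 listed genes of the oxidative branch 3 were measured, of which Pgls fell and the other 2 did not pass (15.5% of all genes were called). The listed gene that was not measured is G6pdx, glucose 6-phosphate dehydrogenase, so the step ahead of Pgls is not covered by it here.

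**Figure D2:**
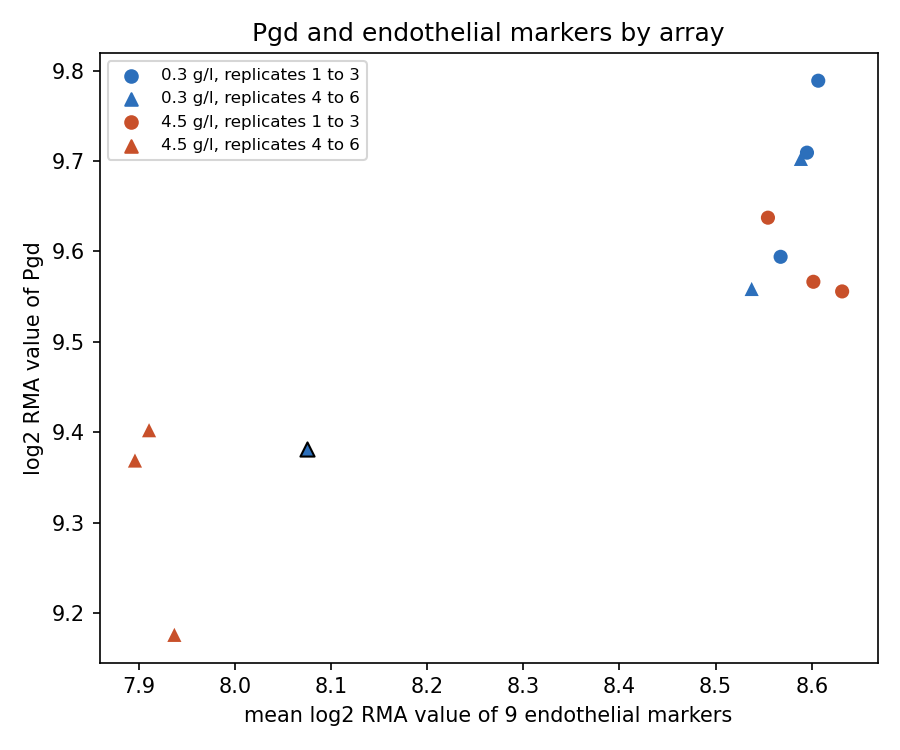
Log2 RMA value of Pgd (vertical axis) against the mean log2 RMA value of 9 endothelial markers (horizontal axis) on the 12 arrays; colour gives the glucose group, circles are replicates 1 to 3, triangles replicates 4 to 6, and the black outline marks 0.3 g/l replicate 4. That array and 4.5 g/l replicates 4 to 6 lie at or below 9.40 in Pgd and at or below 8.08 in the marker mean, and the other 8 arrays lie above 9.5 and 8.5.

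In the non-oxidative branch, Rpe, ribulose-phosphate 3-epimerase, which makes xylulose 5-phosphate, fell 1.23-fold. It ran from 8.65 through 9.05 to 9.17 in 0.3 g/l and from 8.56 through 8.73 to 8.83 in 4.5 g/l. The groups overlapped through 0.3 g/l replicate 4 alone (8.65): the other 5 arrays of that group lay at 9.00 to 9.17, above every high glucose array. The mean was 9.01 ± 0.19 in 0.3 g/l and 8.71 ± 0.09 in 4.5 g/l (SD, n = 6), a log2 difference of -0.29 ± 0.09 (SE; 95% interval -0.48 to -0.11; limma adjusted p = 0.0315). Without 0.3 g/l replicate 4 it was -0.37 (limma adjusted p = 0.000624). The difference was -0.30 within replicates 1 to 3 (limma adjusted p = 0.0377) and -0.29 within replicates 4 to 6 (limma adjusted p = 0.369), or -0.43 there without 0.3 g/l replicate 4 (limma adjusted p = 0.0337). The call did not hold in 9 of the 12 fits that left out an array (0.3 g/l replicates 1, 2, 3, 5 and 6, and 4.5 g/l replicates 3, 4, 5 and 6; limma adjusted p = 0.0518 to 0.0767), with differences of -0.30 to -0.26 there.

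Rpia, the ribose 5-phosphate isomerase that competes with Rpe for the same substrate, did not pass. Its values were 6.23, 6.56 and 6.74 (lowest, median and highest) in 0.3 g/l and 6.33, 6.42 and 6.61 in 4.5 g/l, with the high glucose arrays inside the range of the low ones. That range reached down to 6.23 through 0.3 g/l replicate 4 alone, and the other 5 low glucose arrays lay at 6.41 to 6.74. The log2 difference was -0.09 ± 0.09 (SE; 95% interval -0.27 to 0.10; limma adjusted p = 0.608). Without 0.3 g/l replicate 4 it was -0.14 and still did not pass (limma adjusted p = 0.204).

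Taldo1, transaldolase, which links the branch back to glycolysis, did not pass with 12 arrays. It lay at 8.20 to 8.28 in 5 arrays of 0.3 g/l and at 7.58 in replicate 4, the lowest value of all arrays. The 4.5 g/l arrays ran from 7.69 through 8.09 to 8.20, with 2 of them, replicates 3 (7.86) and 5 (7.69), below 8. The log2 difference was -0.13 ± 0.12 (SE; 95% interval -0.39 to 0.14; limma adjusted p = 0.586). Without 0.3 g/l replicate 4 it was -0.23 and still did not pass (limma adjusted p = 0.0629). It was -0.22 within replicates 1 to 3 and -0.03 within replicates 4 to 6, or -0.25 there without 0.3 g/l replicate 4.

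Of 6 listed genes of the non-oxidative branch 5 were measured, of which Rpe fell and 4 did not pass (15.5% of all genes were called). Tkt, transketolase, shares its probe set with a microRNA gene in the annotation and was therefore not named. Its relatives Tktl1 and Tktl2 had means of 4.07 and 2.86 in low glucose, both under 4.20 and so among the dimmest 25% of genes.

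**Figure D3:**
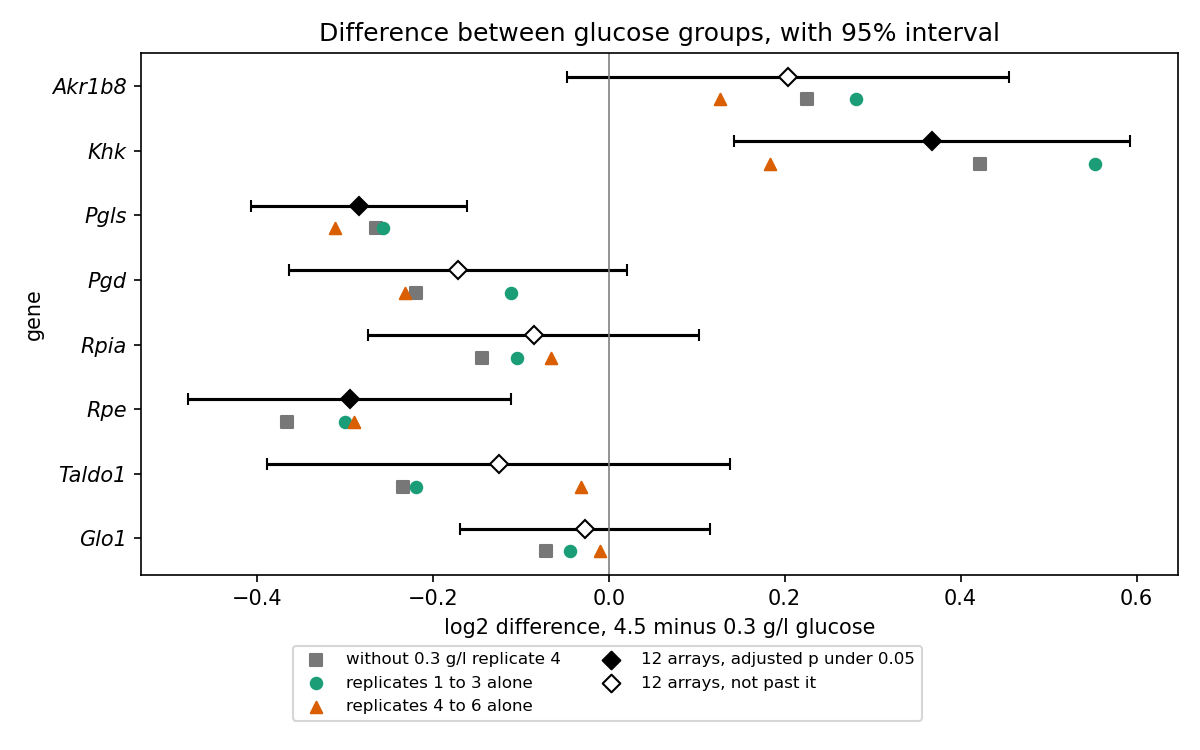
Log2 difference between 4.5 and 0.3 g/l glucose for the 8 genes; diamonds with 95% intervals are the fit over 12 arrays, filled where the adjusted p was under 0.05, and the smaller symbols below give the values for replicates 1 to 3 alone, for replicates 4 to 6 alone, and with 0.3 g/l replicate 4 left out. Khk lies to the right of 0 and Pgls and Rpe to the left in all 4 fits shown, and the Khk value ranges from 0.18 to 0.55.

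Genes next to the non-oxidative branch use ribose 5-phosphate or feed sugars into it. Of 9 measured, 1 rose, 1 fell and 7 did not pass, where 15.5% of all genes were called. Prpsap1 and Prpsap2 encode proteins associated with phosphoribosyl pyrophosphate synthetase, the enzyme that commits ribose to nucleotides, and they went in opposite directions. Prpsap1 rose 1.22-fold (log2 difference 0.29 ± 0.07, SE; limma adjusted p = 0.0115). Its values lay between 7.67 and 7.94 in 0.3 g/l and between 7.95 and 8.26 in 4.5 g/l, without overlap, and it passed in all 12 fits that left out an array. Prpsap2 was 1.35-fold lower (-0.43 ± 0.13; limma adjusted p = 0.0345). It lay at 6.89 to 7.09 in 5 arrays of 0.3 g/l, at 6.22 in replicate 4 and at 6.29 to 6.58 in 4.5 g/l, and without that replicate the difference was -0.56 (limma adjusted p = 3.26e-05). Its call did not hold in 10 of the 12 fits that left out an array (limma adjusted p = 0.0510 to 0.0807). The synthetases themselves, Prps1 (-0.22 ± 0.12) and Prps2 (0.14 ± 0.09), did not pass. Tigar, a phosphatase known to divert glucose towards the pentose phosphate pathway, had a log2 difference of -0.19 ± 0.08, which missed the threshold over all arrays (limma adjusted p = 0.159) and passed it without 0.3 g/l replicate 4 (-0.27, limma adjusted p = 0.00136).

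In methylglyoxal clearance, Glo1, glyoxalase 1, showed no difference past the threshold. Its values ran from 8.87 through 9.13 to 9.19 in 0.3 g/l and from 8.96 through 9.05 to 9.15 in 4.5 g/l, and the groups overlapped. The log2 difference was -0.03 ± 0.07 (SE; limma adjusted p = 0.854), and its 95% interval of -0.17 to 0.11 bounds a change in either direction. After cyclic loess scaling the sign turned, at 0.0040. Of 7 listed genes of this route, all measured, 0 passed in limma, where 15.5% of all genes were called. In the exact rank-sum test 0 passed (1 with an unadjusted p under 0.05), where 8.99% of all genes were called. In limma 2 of the 7 genes, Hagh and Aldh2, had an unadjusted p under 0.05 (0.0289 and 0.0124). Hagh, glyoxalase 2, differed by -0.23 ± 0.10, and Aldh2, a mitochondrial aldehyde dehydrogenase, by -0.21 ± 0.07. Both passed without 0.3 g/l replicate 4, at -0.32 and -0.23 (limma adjusted p = 0.00211 and 0.0335), and Aldh2 also without 4.5 g/l replicate 2 or 3 (limma adjusted p = 0.0414 and 0.0467).

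Over the 5 pathway lists together 32 of 38 genes were measured, with 3 called higher and 4 lower and a median log2 difference of -0.09. Leaving out the 8 genes described here, 4 of 24 were called (16.7%), against 15.5% of all genes. Without 0.3 g/l replicate 4, 3 of the 32 were higher and 6 lower, where 23.9% of all genes were called. The pathway list genes called lower without it were Pgls, Rpe, Prpsap2, Tigar, Hagh and Aldh2.

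**Figure D4:**
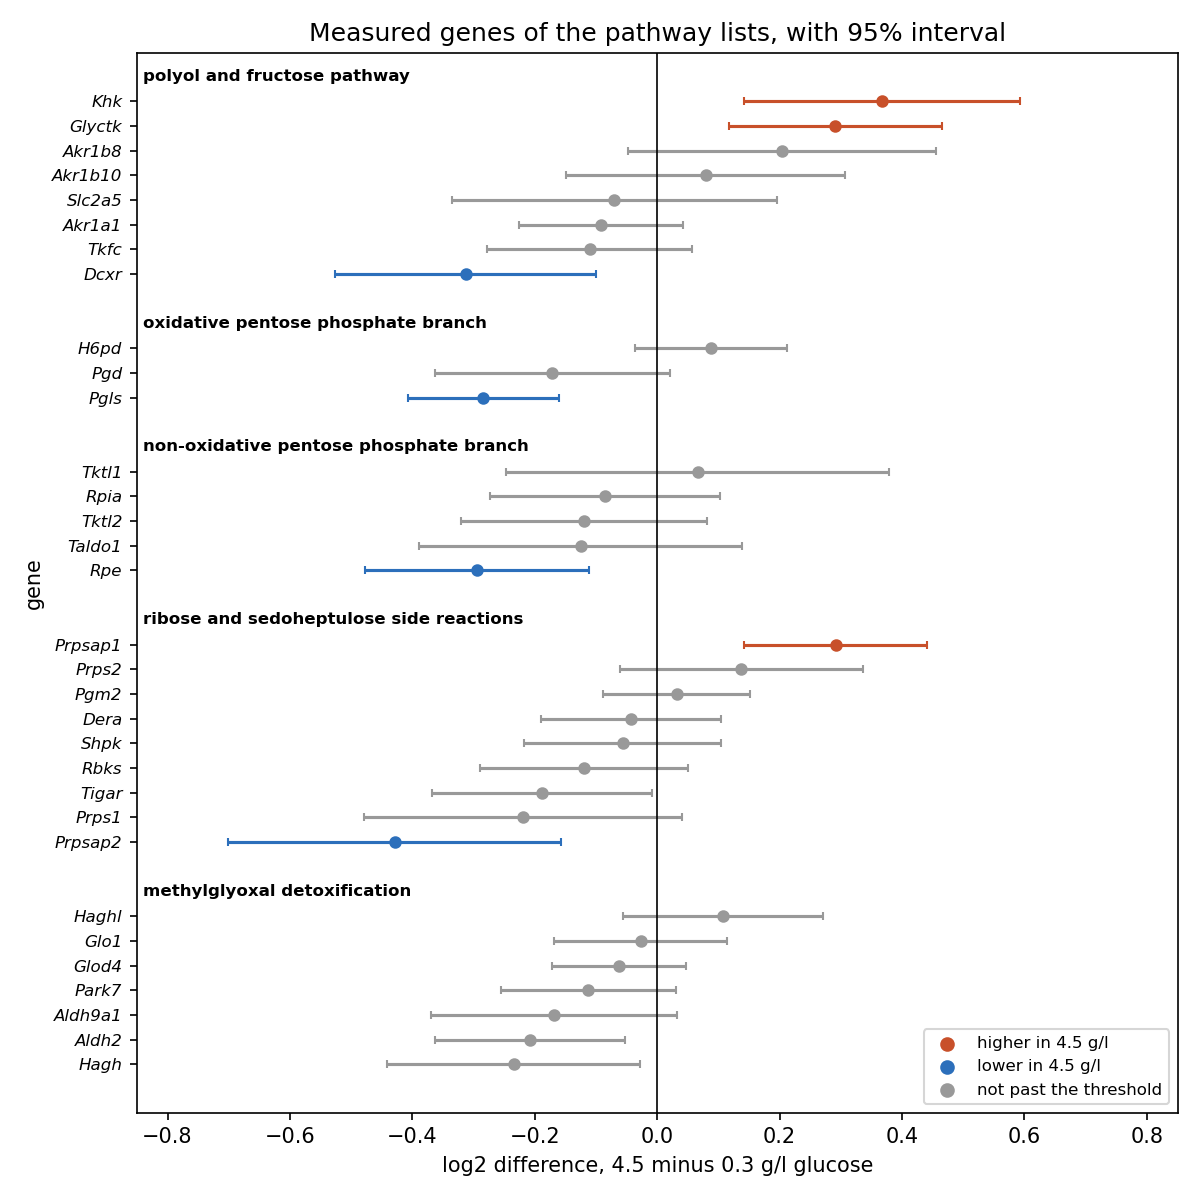
Log2 difference between 4.5 and 0.3 g/l glucose with its 95% interval for the 32 measured genes of the 5 pathway lists, sorted within each list; colours mark genes called higher, lower or neither by limma over 22180 genes. The 3 genes called higher are Khk, Glyctk and Prpsap1 and the 4 called lower Dcxr, Pgls, Rpe and Prpsap2, and all 32 point values lie between -0.43 and 0.37.

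Genes that make NADPH outside the pentose phosphate pathway showed 1 rise and 1 fall among 8 measured, where 15.5% of all genes were called. Nnt, the nicotinamide nucleotide transhydrogenase of mitochondria, rose by 0.33 ± 0.05 on the log2 scale (SE; limma adjusted p = 0.00114). Its values lay between 8.87 and 8.95 in 0.3 g/l and between 9.11 and 9.31 in 4.5 g/l, without overlap. As background, C57BL/6J mice are known to carry a deletion in this gene; where the probe set lies relative to it was not examined. Aldh1l2, a mitochondrial folate enzyme, fell 3.14-fold (-1.65 ± 0.26; limma adjusted p = 0.000962). It lay at 9.83 to 9.91 in 5 arrays of 0.3 g/l, and at 8.49 in replicate 4. In high glucose, replicates 1 to 3 had 7.43 to 7.79, below the 8.32 to 8.49 of replicates 4 to 6. The malic enzyme Me1 (-0.12 ± 0.06) and the isocitrate dehydrogenases Idh1 (-0.16 ± 0.09) and Idh2 (-0.07 ± 0.08) did not pass.

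Aldose reductase is a classic target of the osmotic response factor NFAT5 and several pentose phosphate genes are targets of NRF2, so both sets were looked at for context. Of 8 measured genes of the osmotic list, 4 rose and 4 did not pass (median log2 difference 0.27), where 7.01% of all genes were called higher. Besides Nfat5, those that did not pass were Hspa4l (0.24 ± 0.12, SE), Aqp1 (0.05 ± 0.07) and Slc6a12 (0.03 ± 0.11). Slc5a3, also on this list, was not among the measured genes. Slc6a6, the taurine transporter, rose 1.65-fold (0.72 ± 0.12, SE; limma adjusted p = 0.00144): 10.84 to 11.05 in 5 arrays of 0.3 g/l, 11.58 in replicate 4 and 11.52 to 11.92 in 4.5 g/l. The other risers were Lcp1, an actin-bundling protein (1.30 ± 0.26), S100a4, a calcium-binding protein (0.85 ± 0.14), and Slc38a2, a neutral amino acid transporter (0.29 ± 0.09), which is also known as an amino acid response gene. Lcp1 lay at 5.63 to 5.85 in 5 arrays of 0.3 g/l and at 4.96 in replicate 4. In 4.5 g/l it was 7.42 to 7.57 in replicates 1 to 3 and 6.20 to 6.46 in replicates 4 to 6. The Slc38a2 call did not hold in 9 of the 12 fits that left out an array. Nfat5 itself differed by 0.18 ± 0.07 and did not pass (limma adjusted p = 0.124), but did without 0.3 g/l replicate 4 (0.22, limma adjusted p = 0.0314). Of 9 measured NRF2 targets outside these pathways 6 fell and 3 did not pass (median -0.59), where 8.52% of all genes were called lower. The 6 ran from Osgin1 (-0.46 ± 0.08) to the cystine transporter Slc7a11 (-2.07 ± 0.45). The 3 that did not pass were Srxn1 (-0.46 ± 0.16), Fth1 (-0.14 ± 0.07) and Nqo1, which had the opposite sign (0.07 ± 0.10). The mean of these 9 genes was 8.74 in 0.3 g/l replicate 4, below the 8.79 to 9.08 of the high glucose arrays, and 9.71 to 9.88 in the other 5 low glucose arrays. Slc7a11 lay at 6.92 in that replicate and at 9.60 to 9.95 in those 5. The pentose phosphate genes Pgd and Taldo1, known NRF2 targets themselves, had differences of -0.17 and -0.13 that did not pass.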

How the data were processed

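Gene expression was measured on 12 Affymetrix mouse gene arrays, 6 per glucose group; the groups are those of the sample labels. The authors deposited 1 table of log2 values for 41345 probe sets; per the submitters' processing notes Affymetrix Expression Console and RMA were used, and versions and a genome build are not given in the sources used here. That the scale is log2 follows from the range of 0.60 to 13.90. RMA forces the arrays onto a common distribution, which hides any change in total RNA, and differences of dim genes are compressed. Array medians lay between 4.92 and 5.05, and no columns were identical. Precision is limited by the number of arrays (median SE of a log2 difference 0.0931).

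The platform annotation gave 1 gene symbol to 23521 probe sets and several to 1814, which were not named. Each of 22180 genes was represented by its probe set with the highest mean. The comparison used limma 3.58.1 under R 4.3.3 (lmFit, then eBayes; two-sided; no block), with Benjamini-Hochberg adjustment across genes. On simulated data for this comparison (22180 genes, 50 changed at each size) the fit recovered 24%, 78%, 100% and 100% of log2 changes of 0.3, 0.5, 1 and 2, with 5 false calls among 156. Far fewer genes were changed there than the 15.5% called in the data. The adjusted p was thus harder to pass, and recovery of small changes may be understated. The array that stood apart was not simulated. Of 106 entries of gene and marker lists 97 were matched. All 10 members were named whatever their values. Further genes came from the pathway lists. From the NADPH, osmotic and NRF2 lists at most 4 called genes by smallest p were planned, with Nfat5, Slc5a3 and Slc6a6 always. Me1, Idh1, Idh2, Cdh5, Emcn, Kdr, Tek, Vwf, Nqo1, Srxn1, Fth1, Hspa4l, Aqp1 and Slc6a12 were named after their values were seen. The members, the lists and the split of replicates 1 to 3 and 4 to 6 were chosen with earlier results of these data known. Alternatives were leaving out each array, replicates 1 to 3 or 4 to 6 alone or as a batch term, the replicate number as a block, quantile, cyclic loess or median scaling, trended robust moderation, leaving out the dimmest 25% of genes, averaged probe sets, array weights and an exact rank-sum test; the other Pgls probe set was added after seeing the data. Figures were drawn with matplotlib 3.10.9.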

Additional observations from a re-analysis of the deposited data

Results flagged for a closer look

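In 0.3 g/l, replicate 4 was far from the rest of its group in 2 of the 16 groups of 6 values that were looked at, by Dixon's test. For Taldo1 it lay at 7.58, where the other 5 arrays lay at 8.20 to 8.28. For Rpe it lay at 8.65, where the other 5 lay at 9.00 to 9.17. Chance flags about 1 in 20 such groups. Both values come from the array that lay among the 4.5 g/l arrays over all genes, and the cause was not tested.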

How the results depend on the processing

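The signs of the differences of the 8 genes were the same under all 25 alternatives run for each (26 for Pgls), with 1 exception: Glo1, not called in any of them, was 0.0040 after cyclic loess. The replicate block, batch term, trended robust moderation, dim gene filter and rank-sum test leave the difference itself unchanged. Its sign could not turn in these, and probe set means could alter the difference of Pgls alone. The count of genes called higher (1, Khk) was 0 with the replicate block, in the exact rank-sum test and within replicates 4 to 6, with or without 0.3 g/l replicate 4, and ranged from 0 to 1 when an array was left out; its unadjusted p was 0.00712 with the block and 0.0152 in the rank-sum test. The count called lower (2, Pgls and Rpe) was 1 in the exact rank-sum test, 1 within replicates 1 to 3, 0 within replicates 4 to 6 (limma; 1 without 0.3 g/l replicate 4), and 1 to 2 when an array was left out. Within replicates 4 to 6 limma called 0.135% of all genes, and 1 of the 8, Pgls, had an unadjusted p under 0.05 (0.0104). The share of all genes called moved with the other settings too, from 15.5% over all arrays. It was 14.1% with the replicate block, 8.99% in the rank-sum test and 13.1% within replicates 1 to 3. Within replicates 4 to 6 without 0.3 g/l replicate 4 it was 15.5%. Leaving out 0.3 g/l replicate 4 alone gave 23.9%, and leaving out any other array gave 11.3% to 14.4%. A changed count among the 8 genes thus need not be specific to them. The pathway lists had 3 higher and 4 lower; leaving out an array gave 1 to 3 higher and 1 to 6 lower, and cyclic loess gave 3 and 3. Scaling, moderation, the filter on dim genes, probe set means, array weights and the batch term left both counts of the 8 genes as they were. The share of genes called in these settings ran from 14.1% (median scaling) to 24.4% (array weights). It was 23.8% of the genes kept by the filter, 17.6% with trended robust moderation and 17.5% with the batch term.

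Replicate numbers did not pair the arrays: same-numbered arrays of the groups had correlations of -0.05 to 0.17 in their deviations, over 0.1 in 2 of 6 pairs, and 1 of 6 matched its own number best. With the replicate block limma gave adjusted p = 0.0188 for Pgls, 0.0484 for Rpe and 0.0503 for Khk, the pathway lists had 2 higher and 3 lower, and Dcxr did not pass (0.0729). In the exact rank-sum test, whose smallest p is 0.00216, adjusted p was 0.0338 for Pgls, 0.0964 for Khk and 0.133 for Rpe. The cause of these changes was not tested. Differences near 0.3 on the log2 scale are at the edge of what 12 arrays can show.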
